A study of Homo sapiens with 20 samples.

Results

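The genes described here are 37 members of the cellular response to amino acid shortage and to unfolded protein in the endoplasmic reticulum. They were chosen by name, as the rows of the expression table whose platform annotation holds a member's symbol, with the row of highest mean where a gene had several. All 37 had a row, out of 18384 features tested on the array. PSPH was read by row 3051868, annotated to PSPH and to NUPR2, and HSP90B1 by row 3429312, which it shares with the pseudogene HSP90B3P, so neither row can be assigned to 1 gene. The values are log2 expression levels on Affymetrix exon arrays (Exon 1.0 ST), normalised by RMA.

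The cells were WM793, an established line from a vertical growth phase melanoma, and 4 lines made from it that overexpress NME1, a kinase that transfers phosphate between nucleotides and is known to suppress metastasis. These were NME1-E5A, NME1-K12Q and NME1-P96S, which carry the mutant constructs E5A, K12Q and P96S, NME1-wild-type with the wild-type construct, and the Parent line WM793 itself. Each line was measured on 4 arrays after 3 days of growth, 20 arrays in all, and the study calls them technical replicates. Each construct is present as 1 line, so p-values and intervals below rest on the spread between arrays and leave out the spread between independently made lines. The title of the study names a gene signature of metastasis suppression by NME1. For these members the design asks whether their RNA differed between each NME1 line and Parent, between each mutant and NME1-wild-type, and between the mutants, which makes 10 comparisons.

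Cells read amino acid shortage and misfolded protein through sensors. The kinase GCN2, activated by uncharged transfer RNA, and the endoplasmic reticulum kinase PERK both phosphorylate the initiation factor eIF2 alpha, which lowers general translation but favours translation of ATF4. ATF4 and its partners then raise genes for amino acid synthesis, amino acid uptake and stress feedback. The other sensors of the endoplasmic reticulum are IRE1, which splices XBP1 RNA, and ATF6, which is cut to release a transcription factor, and both raise chaperone and degradation genes. Phosphorylation, cleavage, translation and the splicing of XBP1 are not measured by the gene-level values analysed here.

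The RefSeq promoter windows of these genes (build GRCh38.p14, 250 bases before to 50 after a start site) were searched for elements through which the pathway is known to act. Windows were found by symbol for 34 members, all but PSPH, SHMT2 and NUPR1. The C/EBP-ATF response element, written TGATGNAA and searched on both strands, stood in a window of 9 of the 34 member genes and in 3.62% of all 35116 windows (4.46% of genes). The 9 matches follow, each read in the direction of the motif with up to 12 bases on either side and the match in capitals.
ATF3 (chr1:212565204-212565235, plus strand): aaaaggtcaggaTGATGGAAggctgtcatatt
SLC1A4 (chr2:64989380-64989411, minus strand): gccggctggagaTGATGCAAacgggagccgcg
ASNS (chr7:97872457-97872488, minus strand): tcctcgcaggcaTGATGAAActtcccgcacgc
SLC3A2 (chr11:62881724-62881748, minus strand): ggagcTGATGTAAggagtcctgcac
SLC7A1 (chr13:29595662-29595693, minus strand): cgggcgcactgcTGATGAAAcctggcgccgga
CHAC1 (chr15:40953250-40953281, minus strand): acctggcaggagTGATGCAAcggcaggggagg
HERPUD1 (chr16:56931954-56931985, minus strand): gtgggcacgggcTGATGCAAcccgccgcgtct
CEBPG (chr19:33374059-33374090, plus strand): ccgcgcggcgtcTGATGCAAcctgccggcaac
SLC1A5 (chr19:46784892-46784923, minus strand): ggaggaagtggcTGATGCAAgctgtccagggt
The endoplasmic reticulum stress element, CCAAT followed after 9 bases of any kind by CCACG, on either strand, stood in windows of 5 of the 34 member genes and in 0.0769% of all windows (0.0916% of genes). HSP90B1 held 2 copies, and the matches are shown in the same way.
CANX (chr5:179698766-179698808, plus strand): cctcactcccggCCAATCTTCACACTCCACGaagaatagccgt
HSPA5 (chr9:125241379-125241421, minus strand): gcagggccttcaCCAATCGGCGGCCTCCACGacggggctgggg
HSP90B1 (chr12:103930204-103930246, plus strand): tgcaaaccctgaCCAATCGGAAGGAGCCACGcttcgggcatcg
HSP90B1 (chr12:103930309-103930351, minus strand): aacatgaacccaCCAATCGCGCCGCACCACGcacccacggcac
CALR (chr19:12938372-12938414, minus strand): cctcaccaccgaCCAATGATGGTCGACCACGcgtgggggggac
XBP1 (chr22:28800591-28800633, minus strand): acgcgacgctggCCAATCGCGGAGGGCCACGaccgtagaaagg
The core of the unfolded protein response element, TGACGTGG, was in 0 of the 34 and in 0.729% of all windows. No member gene held both of the first 2 motifs, so their matches do not overlap. A match is a description of these letters and says nothing of whether a factor binds there in these cells. The whole windows of ASNS (chr7:97872359-97872658, minus strand) and HSPA5 (chr9:125241294-125241593, minus strand), as examples of the amino acid arm and the unfolded protein arm, are given 5′ to 3′ with the matches in capitals.
ASNS: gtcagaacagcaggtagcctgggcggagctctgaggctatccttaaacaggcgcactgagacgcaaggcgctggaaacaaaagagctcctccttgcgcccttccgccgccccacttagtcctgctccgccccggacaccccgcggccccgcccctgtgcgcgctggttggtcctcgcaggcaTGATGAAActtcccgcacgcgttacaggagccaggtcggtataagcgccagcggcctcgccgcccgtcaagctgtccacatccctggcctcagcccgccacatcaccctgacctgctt
HSPA5: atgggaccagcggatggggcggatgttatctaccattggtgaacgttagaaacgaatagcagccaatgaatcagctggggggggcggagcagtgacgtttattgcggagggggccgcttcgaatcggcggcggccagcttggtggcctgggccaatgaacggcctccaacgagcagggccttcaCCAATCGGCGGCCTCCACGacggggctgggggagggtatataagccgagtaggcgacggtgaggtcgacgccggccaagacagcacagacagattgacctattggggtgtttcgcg

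The arrays and the labels were checked before the members. Array medians lay between 6.27 and 6.50, the correlation r of any 2 arrays over all rows was 0.91 to 0.995, and no labels or headers name a batch. The interquartile range of an array varied from 2.19 to 3.16, and the 3 narrowest arrays were replicate 3 of NME1-P96S, replicate 2 of NME1-K12Q and replicate 2 of Parent. The row of NME1, which is shared with the NME1-NME2 readthrough transcript, averaged 9.78, 9.75, 9.78 and 9.81 in NME1-E5A, NME1-K12Q, NME1-P96S and NME1-wild-type and 9.53 ± 0.173 (SD, n = 4) in Parent. It was thus higher by 0.26, 0.23, 0.25 and 0.28 in the same order of lines, the direction the labels state, and did not pass the limma test in any of them. The 4 NME1-wild-type arrays, 9.75 to 9.86, just cleared the Parent arrays, 9.37 to 9.74, which 0.827% of all features did in this comparison, and the other 3 lines overlapped Parent. Of 8 melanoma markers measured, SOX10, S100B, CSPG4 and NES had means above the median of all features, while the pigment cell genes MITF, PMEL, MLANA and TYRP1 lay below it. Markers of leukocytes (0 of 3), endothelium (0 of 4) and keratinocytes or epithelium (0 of 3) were not above that median, and 2 of 5 fibroblast markers were, COL1A1 and FAP.

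No member of the amino acid and unfolded protein stress group changed in any of the 10 comparisons. A change required an adjusted p under 0.05 in limma and at least 1.5-fold. The largest difference between any pair of lines was 0.43 on the log2 scale (1.34-fold), in SLC1A4 between NME1-E5A and NME1-wild-type, so 0 of the 370 differences reached 1.5-fold. Against Parent, 0 of 37 members passed in NME1-E5A, where 0.218% of all features passed, 0 in NME1-K12Q (background 0.00544%), 0 in NME1-P96S (0.103%) and 0 in NME1-wild-type (0.0326%). Against NME1-wild-type, 0 passed in NME1-E5A (0.207%), NME1-K12Q (0.0381%) or NME1-P96S (0.201%). Between mutants, 0 passed for NME1-E5A against NME1-K12Q (0.169%), NME1-E5A against NME1-P96S (0.239%) or NME1-K12Q against NME1-P96S (0.277%). A share of 0 of 37 lies near each of these backgrounds and is not a result about the group. Without the 3 narrowest arrays the count was again 0 in all 10 comparisons. In the F test over all 5 lines 0 members passed (background 0.582%), and 0 had an unadjusted p under 0.05 (background 3.29%).

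At an unadjusted p under 0.05, limma without a block for the replicate number gave 0 members in each of the 4 comparisons with Parent, where the background was 2.98% for NME1-E5A, 1.48% for NME1-K12Q, 3.14% for NME1-P96S and 1.38% for NME1-wild-type. Against NME1-wild-type it gave 1 member in NME1-E5A (2.4%), 1 in NME1-K12Q (1.29%) and 0 in NME1-P96S (3.39%). Between mutants it gave 3 for NME1-E5A against NME1-K12Q (2.79%), 2 for NME1-E5A against NME1-P96S (4.11%) and 2 for NME1-K12Q against NME1-P96S (3.12%). These 9 values came from SLC1A4, SLC1A5, ASNS, SLC7A5 and CEBPB. In this fit without the block the other 32 members had a 95% interval that included 0 in all 10 comparisons. Same replicate numbers count as pairs in NME1-wild-type against Parent and in NME1-K12Q against NME1-wild-type. With the block PHGDH had an unadjusted p under 0.05 in the first, and SLC3A2 and SLC1A5 in the second, with 0 members passing. The arrays of an NME1 line and of Parent overlapped for every member, where 1.99% of all features had no overlap in NME1-E5A, 1.17% in NME1-K12Q, 1.23% in NME1-P96S and 0.827% in NME1-wild-type. Against NME1-wild-type, members without overlap numbered 1 in NME1-E5A (3.3% of features), 1 in NME1-K12Q (1.34%) and 0 in NME1-P96S (1.83%).

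The intervals show what sizes the arrays could exclude. Of the 37 members, 28 had a 95% interval inside 1.5-fold in either direction for NME1-E5A against Parent, 29 for NME1-K12Q, 28 for NME1-P96S and 32 for NME1-wild-type, where the shares over all features were 67%, 70.2%, 58.7% and 68%. Over all 10 comparisons 297 of 370 intervals were inside 1.5-fold and 365 inside 2-fold. The 5 intervals past 2-fold all belonged to DDIT3. With the replicate number as a block, 303 of 370 were inside 1.5-fold and all 370 inside 2-fold. Intervals and SDs are from the fit without the block wherever the block is not named. The intervals hold 1 value at a time and are not adjusted for the number of members. The line means of a member spanned 0.09 to 0.43, with a median span of 0.23, while the pooled SD between arrays of a line had a median of 0.221. In 18 of the 37 members the whole span of the 5 line means was smaller than that member's own SD between arrays. The plot of differences shows the members by role in all comparisons, and the plot of intervals shows the same differences from Parent with their error.

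**Figure D1:**
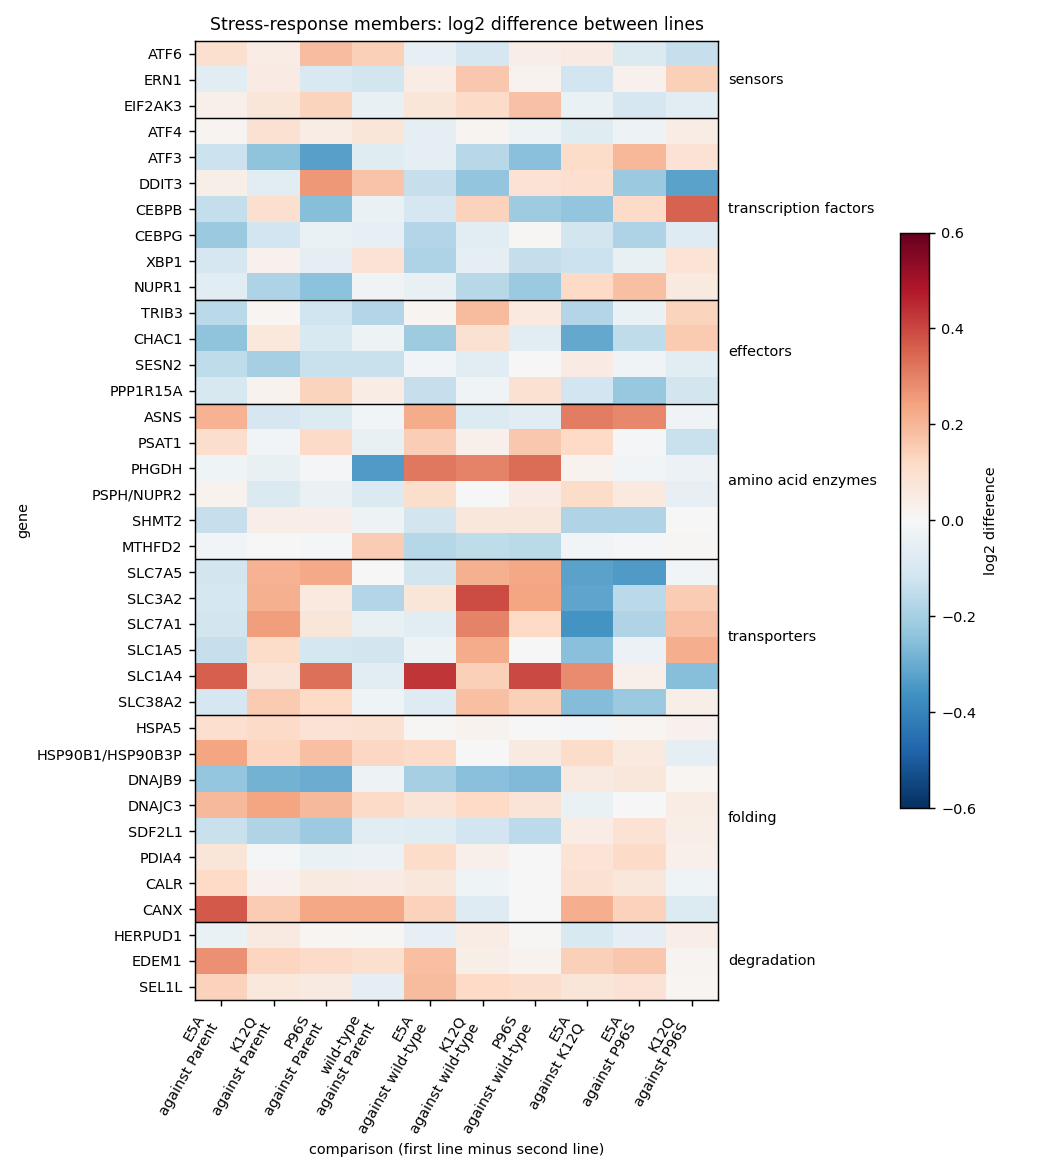
Log2 difference of each of the 37 members (rows, grouped by role) in each of the 10 comparisons (columns, the line named first minus the line named second), with red for higher and blue for lower in the line named first. The strongest cells are SLC1A4 in NME1-E5A (0.43) and in NME1-P96S (0.40) against NME1-wild-type, and 0 of 370 reach 1.5-fold.

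**Figure D2:**
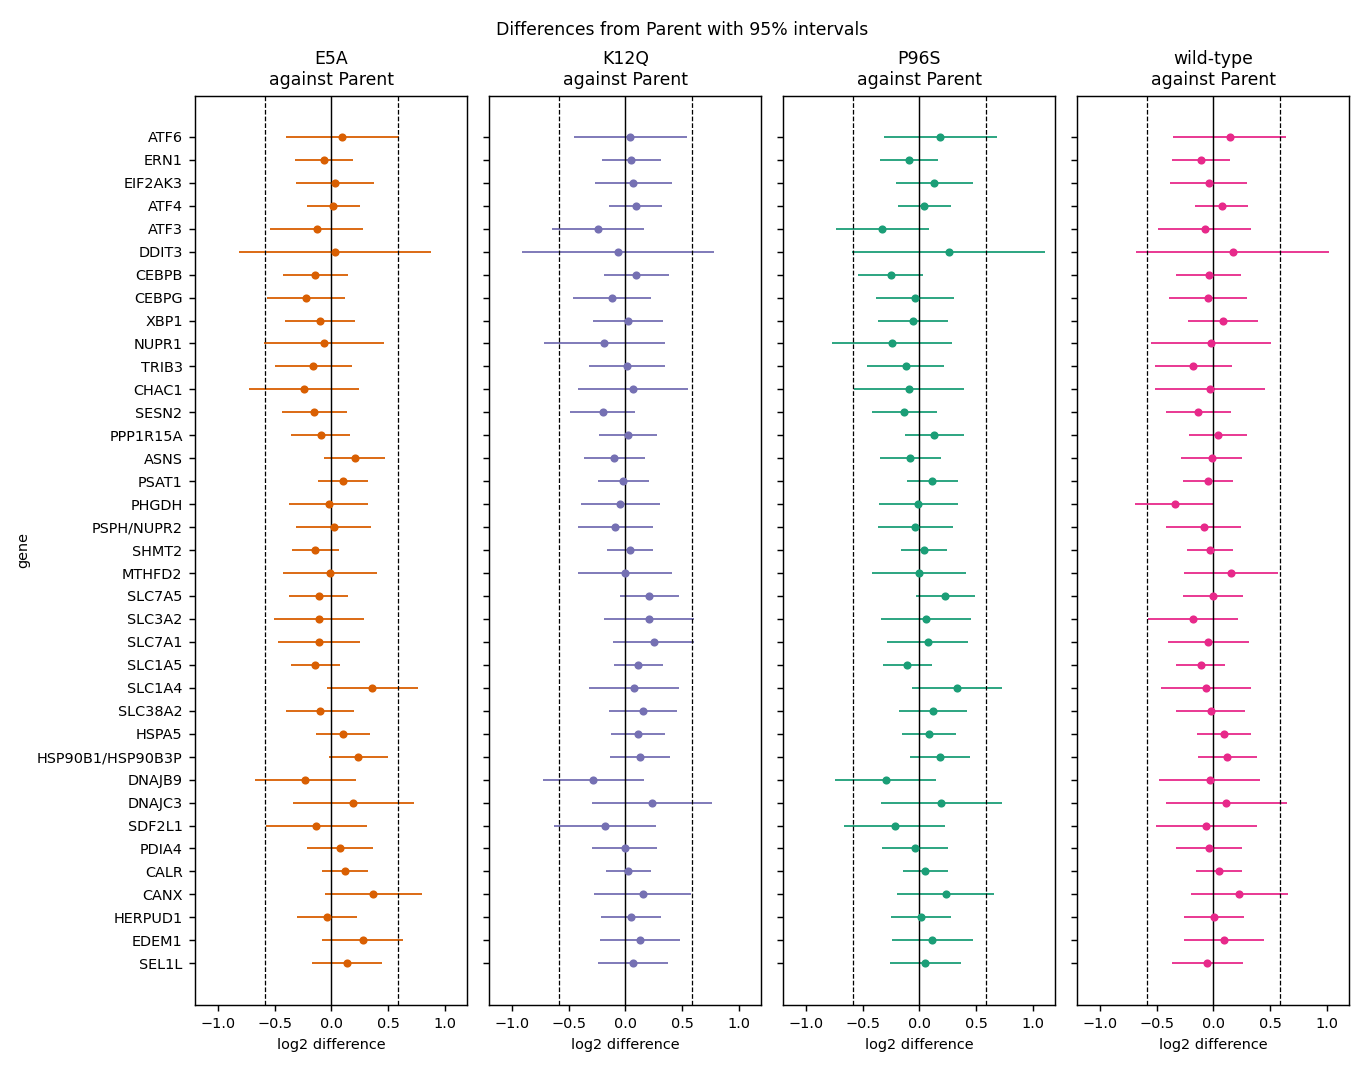
Log2 difference from Parent (horizontal axis) of each member (vertical axis) in the 4 NME1 lines, with bars for limma 95% intervals and dashed lines at 1.5-fold up and down. Every interval of this fit, which is without the replicate block, crosses 0, and those of DDIT3 are the widest.

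The sensors showed small differences. ATF6, the membrane-bound factor released by cleavage, ranged over 7.88 to 9.33 on the 20 arrays and differed from Parent by 0.09, 0.04, 0.18 and 0.15 in NME1-E5A, NME1-K12Q, NME1-P96S and NME1-wild-type. ERN1, which encodes IRE1, ranged over 5.76 to 6.38 with differences of -0.06, 0.05, -0.09 and -0.11 in the same order of lines. EIF2AK3, which encodes PERK, ranged over 6.56 to 7.36 with differences of 0.03, 0.07, 0.13 and -0.04. The ATF6 signs depended on the arrays of narrowest spread. On Parent replicate 2, the narrowest array, ATF6 was 7.88, with 8.75, 8.77 and 9.33 on the other Parent arrays, and without the 3 narrowest arrays its differences were -0.17, -0.07, 0.11 and -0.12, so the sign turned in NME1-E5A, NME1-K12Q and NME1-wild-type. Such a turn was common: of the 148 differences of members from Parent, 32 changed sign without those arrays, none of them larger than 0.23 in size with all arrays. For all 3 the arrays of every NME1 line overlapped those of Parent, and 0 of 3 passed in any comparison.

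Of the 7 transcription factors, 0 passed. ATF4, the factor at the centre of the amino acid response, had 8.12, 7.82, 7.86 and 8.25 in NME1-E5A, 8.17, 8.004, 8.02 and 8.14 in NME1-K12Q, 8.14, 7.88, 8.07 and 8.07 in NME1-P96S, 8.13, 8.17, 7.91 and 8.06 in NME1-wild-type and 8.03, 8.09, 7.96 and 7.89 in Parent. Its line means spanned only 0.09, from 8.09 ± 0.0845 in NME1-K12Q to 7.995 ± 0.0886 in Parent (SD, n = 4 each), and the largest difference had a 95% interval of -0.14 to 0.33. ATF4 is controlled mainly in translation, which these RNA values do not show. DDIT3, which encodes the pro-apoptotic factor CHOP, varied most between arrays of a line, with a pooled SD of 0.646 and values of 5.48 to 7.20. Its differences from Parent were 0.03, -0.07, 0.26 and 0.17 in NME1-E5A, NME1-K12Q, NME1-P96S and NME1-wild-type, and the interval for NME1-P96S, -0.59 to 1.11, reached past 2-fold. A 2-fold change of DDIT3 was thus inside the interval in 5 of the 10 comparisons. DDIT3 levels went with the replicate number. Replicate 1 was the highest array in NME1-E5A, NME1-K12Q and NME1-P96S, at 6.96, 6.85 and 7.20, and the second highest in NME1-wild-type at 6.57 and in Parent at 6.48. With the replicate number as a block its SD fell to 0.407, against 0.646 without it, and none of its 10 intervals then reached past 2-fold, with -0.29 to 0.81 for NME1-P96S against Parent. The pattern was not particular to DDIT3, since replicate 1 was the highest array of every line in XBP1 and in HERPUD1. Its XBP1 values were 9.36, 9.60, 9.52, 9.58 and 9.48 in NME1-E5A, NME1-K12Q, NME1-P96S, NME1-wild-type and Parent. In HERPUD1 they were 8.83, 8.90, 8.95, 8.88 and 8.85. Not every member did so: in SLC7A1 replicate 1 was the lowest array of every NME1 line and the highest of Parent. What the number stands for is not given in the labels.

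CEBPB, a C/EBP family partner of ATF4, was the transcription factor with the smallest F-test p. CEBPB had 8.91, 8.42, 8.71 and 8.78 in NME1-E5A, 9.10, 8.95, 8.87 and 8.86 in NME1-K12Q, 8.71, 8.37, 8.62 and 8.67 in NME1-P96S, 8.84, 9.04, 8.62 and 8.72 in NME1-wild-type and 8.85, 9.16, 8.59 and 8.78 in Parent. The 4 NME1-K12Q arrays lay above the 4 NME1-P96S arrays, while the Parent arrays overlapped both. The difference between NME1-K12Q and NME1-P96S was 0.35 (95% interval 0.06 to 0.64, limma adjusted p = 1.00, exact permutation p = 0.0286). The exact p values here and below come from permuting the 4 and 4 arrays of a pair of lines, two-sided, and 0.0286 is the smallest that design allows. Members whose arrays did not overlap numbered 2 in that comparison, CEBPB and SLC1A5, against 2.22% of all features.

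The other factors also overlapped Parent in every NME1 line. CEBPG, another partner of ATF4, differed by -0.22, -0.12, -0.04 and -0.05 over a range of 6.40 to 7.27, and XBP1, whose RNA is spliced by IRE1, by -0.10, 0.02, -0.06 and 0.08 over 8.89 to 9.60. ATF3, a stress-induced repressor downstream of ATF4, differed by -0.13, -0.24, -0.33 and -0.07, and NUPR1, a small stress-induced chromatin protein, by -0.07, -0.19, -0.24 and -0.02. Both differences were lowest in NME1-P96S. ATF3 and NUPR1, with ERN1, DDIT3, CHAC1 and DNAJB9, are the 6 members whose mean lay below the median of all features. Their median deviation from the line mean was above 0 on the 3 arrays of narrowest spread, but not every gene read high there. DDIT3 was 5.78 on NME1-K12Q replicate 2 and 5.71 on NME1-P96S replicate 3, under its line means of 6.01 and 6.34. DNAJB9, at 5.97 and 6.16, was also under its means of 6.23 and 6.22. On Parent replicate 2, the narrowest array, the median deviation of those 6 members from their line mean was 0.47, and on Parent replicate 4 it was -0.38. With the interquartile range of each array as a covariate the difference in NME1-P96S was -0.13 for ATF3 and turned to 0.04 for NUPR1.

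**Figure D3:**
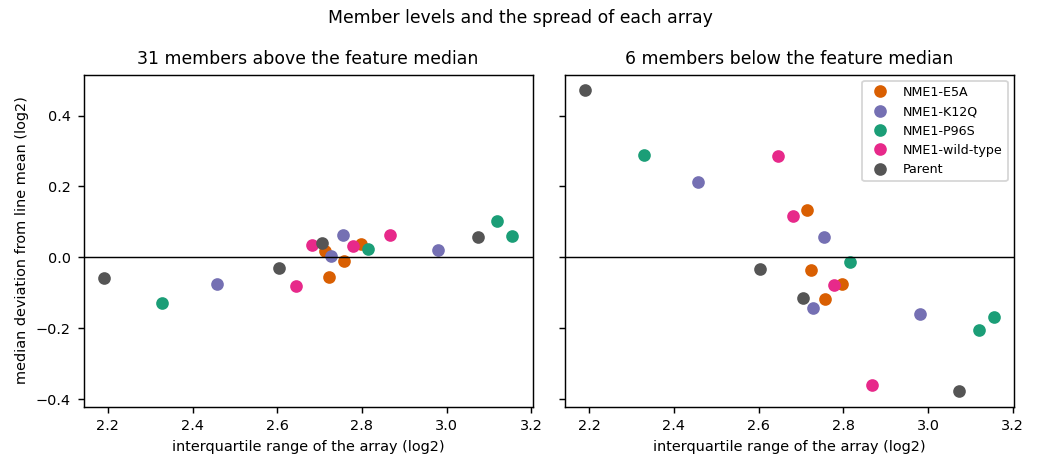
Median deviation of the members from their own line mean (vertical axis, log2) on each of the 20 arrays against the interquartile range of that array (horizontal axis, log2), for the 31 members with a mean above the median of all features and the 6 below it. On the narrowest array, Parent replicate 2, the median deviation was 0.47 for the 6 lower members and -0.06 for the 31 higher members.

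Among the 4 feedback and effector genes 0 passed. All 4 were below Parent in NME1-E5A, with a median of -0.16 against -0.04 over all features, and the median was -0.05 without the 3 narrowest arrays. TRIB3, a pseudokinase that restrains ATF4 and CHOP, differed by -0.16, 0.01, -0.12 and -0.18 in NME1-E5A, NME1-K12Q, NME1-P96S and NME1-wild-type. CHAC1, a glutathione-degrading enzyme and a target of ATF4, differed by -0.24, 0.06, -0.09 and -0.03, and its interval in NME1-E5A was -0.72 to 0.24. SESN2, which signals leucine shortage to mTORC1, differed by -0.15, -0.20, -0.13 and -0.13. PPP1R15A, which encodes GADD34 and directs the dephosphorylation of eIF2 alpha, differed by -0.10, 0.02, 0.13 and 0.04. Between NME1-E5A and NME1-P96S the PPP1R15A arrays did not overlap, with a difference of -0.23 (limma adjusted p = 1.00, exact permutation p = 0.0286).

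Of the 6 enzymes of amino acid synthesis and folate-linked carbon supply, 0 passed. ASNS, asparagine synthetase and a classical ATF4 target, had 7.22, 7.07, 7.07 and 6.86 in NME1-E5A, 6.80, 6.69, 6.75 and 6.76 in NME1-K12Q, 6.89, 6.86, 6.61 and 6.71 in NME1-P96S, 7.07, 6.83, 6.80 and 6.64 in NME1-wild-type and 6.74, 6.55, 7.03 and 7.07 in Parent. The NME1-E5A mean was the highest of the 5 lines, and its arrays lay above all NME1-K12Q arrays but overlapped those of the other lines. The difference was 0.31 between NME1-E5A and NME1-K12Q (95% interval 0.04 to 0.58, limma adjusted p = 1.00, exact permutation p = 0.0286) and 0.21 between NME1-E5A and Parent (interval -0.06 to 0.48). Between NME1-E5A and NME1-P96S the ASNS difference was 0.29, with an unadjusted limma p under 0.05 and overlapping arrays, and it did not pass. ASNS, SLC7A5 and SLC1A5 were the 3 members without overlap between NME1-E5A and NME1-K12Q, where 3.54% of all features had none.

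PHGDH, which commits glycolytic carbon to serine, had 9.25, 9.31, 9.24 and 9.34 in NME1-E5A, 9.42, 9.21, 9.16 and 9.27 in NME1-K12Q, 9.34, 9.31, 9.10 and 9.46 in NME1-P96S, 9.10, 8.404, 9.04 and 9.33 in NME1-wild-type and 9.02, 9.14, 9.398 and 9.68 in Parent. NME1-wild-type had the lowest mean, 8.97 ± 0.397 against 9.31 ± 0.293 in Parent (SD, n = 4 each), a difference of -0.34 (95% interval -0.69 to 0.01, limma adjusted p = 0.997, exact permutation p = 0.229). Replicate numbers count as pairs in this comparison, which that interval and those p-values leave out. With the replicate number as a block PHGDH had an unadjusted limma p under 0.05 and did not pass. Replicate 2 of NME1-wild-type, at 8.404, was the lowest of all 20 arrays. PSAT1, the next enzyme of the serine pathway, had 8.77, 8.68, 8.93 and 8.74 in NME1-E5A, 8.75, 8.60, 8.67 and 8.62 in NME1-K12Q, 8.92, 8.92, 8.57 and 8.76 in NME1-P96S, 8.73, 8.45, 8.63 and 8.71 in NME1-wild-type and 8.69, 8.62, 8.64 and 8.76 in Parent. The PSAT1 arrays of every line overlapped those of Parent, with differences of 0.10, -0.02, 0.12 and -0.05 in NME1-E5A, NME1-K12Q, NME1-P96S and NME1-wild-type. SHMT2, which turns serine into glycine in mitochondria, had 9.699, 9.696, 9.76 and 9.88 in NME1-E5A, 10.01, 9.91, 9.87 and 9.98 in NME1-K12Q, 9.98, 9.88, 9.83 and 10.06 in NME1-P96S, 9.85, 9.76, 9.81 and 10.06 in NME1-wild-type and 9.87, 9.92, 9.85 and 9.97 in Parent. Its largest difference was -0.18, between NME1-E5A and NME1-K12Q (limma adjusted p = 1.00, exact permutation p = 0.0571). MTHFD2, a mitochondrial folate enzyme, differed from Parent by -0.02, -0.00052, -0.01 and 0.15, and the row of PSPH and NUPR2 by 0.02, -0.09, -0.04 and -0.09.

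The amino acid transporters stood high in the order of the limma F test. All 6 were among the 10 members with the smallest p of that test, and 0 of 6 passed in any comparison. Their unadjusted F-test p ran from 0.0532 in SLC7A5 to 0.392 in SLC38A2, so the order is a description only. Against Parent, the values were positive for 6 of 6 in NME1-K12Q (median 0.18, with -0.05 over all features), for 5 in NME1-P96S (0.10, with -0.06), for 1 in NME1-E5A (-0.11, with -0.04) and for 0 in NME1-wild-type (-0.06, with -0.03). Without the 3 narrowest arrays the medians in NME1-E5A, NME1-K12Q, NME1-P96S and NME1-wild-type were -0.17, 0.11, 0.05 and -0.11, with 1, 5, 5 and 0 of the 6 positive, and with arrays centred on their medians 1 was positive in NME1-wild-type. These comparisons share the Parent arrays. Of the 6, 5 had lower means in NME1-E5A than in NME1-K12Q, with a median of -0.29 against 0.000677 over all features, and SLC1A4 was higher by 0.28.

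SLC7A5, the light chain of the large neutral amino acid transporter LAT1, had 10.23, 10.55, 10.45 and 10.40 in NME1-E5A, 10.57, 10.95, 10.70 and 10.71 in NME1-K12Q, 10.64, 10.84, 10.78 and 10.74 in NME1-P96S, 10.30, 10.37, 10.73 and 10.68 in NME1-wild-type and 10.62, 10.33, 10.66 and 10.48 in Parent. All 4 NME1-E5A arrays lay below all NME1-K12Q and NME1-P96S arrays and overlapped those of NME1-wild-type and Parent. The difference was -0.32 from NME1-K12Q (95% interval -0.58 to -0.06, limma adjusted p = 1.00, exact permutation p = 0.0286) and -0.34 from NME1-P96S (interval -0.60 to -0.08, limma adjusted p = 0.727, exact permutation p = 0.0286). SLC7A5 and PPP1R15A were the 2 members without overlap between NME1-E5A and NME1-P96S, against 3.01% of all features.

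SLC3A2, the heavy chain that carries LAT1 to the membrane, had 9.37, 9.82, 9.80 and 9.93 in NME1-E5A, 9.97, 10.24, 9.86 and 10.12 in NME1-K12Q, 9.66, 9.997, 9.88 and 10.04 in NME1-P96S, 9.41, 9.11, 9.97 and 10.13 in NME1-wild-type and 9.64, 9.68, 9.96 and 10.06 in Parent. The NME1-wild-type arrays split widely, with replicates 1 and 2 below every Parent array and replicate 4 above every Parent array. The largest difference, 0.39 between NME1-K12Q and NME1-wild-type, had an interval of -0.01 to 0.79 (limma adjusted p = 1.00, exact permutation p = 0.286). Replicate numbers count as pairs in this comparison too, which those values leave out. With the replicate number as a block SLC3A2 had an unadjusted limma p under 0.05 and did not pass. SLC7A1, a carrier of cationic amino acids, had 8.88, 9.49, 9.27 and 9.23 in NME1-E5A, 9.26, 9.72, 9.698 and 9.62 in NME1-K12Q, 9.22, 9.62, 9.33 and 9.42 in NME1-P96S, 8.90, 9.04, 9.64 and 9.53 in NME1-wild-type and 9.47, 9.13, 9.47 and 9.22 in Parent. Replicates 1 and 2 were again the lower arrays of NME1-wild-type. Replicate 1 was the lowest array of NME1-E5A in SLC7A1, SLC3A2, SLC7A5, SLC38A2 and SLC1A4, and the highest in SLC1A5. The SLC7A1 difference between NME1-E5A and NME1-K12Q was -0.36 (limma adjusted p = 1.00, exact permutation p = 0.0857).

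SLC1A5, the glutamine carrier ASCT2, had 8.80, 8.67, 8.70 and 8.74 in NME1-E5A, 9.03, 9.05, 8.96 and 8.88 in NME1-K12Q, 8.80, 8.67, 8.75 and 8.83 in NME1-P96S, 8.73, 8.76, 8.79 and 8.74 in NME1-wild-type and 8.88, 9.15, 8.76 and 8.69 in Parent. The 4 NME1-K12Q arrays lay above every array of the other NME1 lines, while Parent replicate 2, at 9.15, was the highest of all 20. NME1-K12Q differed by 0.22 from NME1-wild-type (95% interval 0.01 to 0.44, limma adjusted p = 1.00, exact permutation p = 0.0286), where SLC1A5 was the 1 member without overlap (background 1.34%), by 0.22 from NME1-P96S and by 0.11 from Parent. Replicate numbers count as pairs between NME1-K12Q and NME1-wild-type, which the interval and p-values given for that difference leave out. With the replicate number as a block SLC1A5 had an unadjusted limma p under 0.05 there and did not pass. NME1-E5A differed from NME1-K12Q by -0.25 (limma adjusted p = 1.00).

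SLC1A4, a neutral amino acid carrier that moves serine and alanine, had its highest means in NME1-E5A and NME1-P96S. It had 7.99, 8.36, 8.35 and 8.15 in NME1-E5A, 7.74, 7.85, 8.06 and 8.07 in NME1-K12Q, 7.997, 8.55, 7.89 and 8.30 in NME1-P96S, 7.45, 7.71, 7.96 and 8.03 in NME1-wild-type and 7.74, 7.35, 7.95 and 8.37 in Parent. Those means were 8.21 ± 0.18 and 8.18 ± 0.3, against 7.79 ± 0.261 in NME1-wild-type and 7.85 ± 0.425 in Parent (SD, n = 4 each), and the Parent arrays alone covered a wider range than the NME1-E5A arrays. The difference of 0.43 between NME1-E5A and NME1-wild-type had a 95% interval of 0.03 to 0.83 (limma adjusted p = 1.00, exact permutation p = 0.0571). SLC38A2, the glutamine carrier SNAT2 that responds to amino acid shortage, had 10.17, 10.20, 10.48 and 10.22 in NME1-E5A, 10.45, 10.36, 10.75 and 10.54 in NME1-K12Q, 10.57, 10.60, 10.34 and 10.44 in NME1-P96S, 10.38, 9.96, 10.53 and 10.51 in NME1-wild-type and 10.67, 10.09, 10.34 and 10.38 in Parent. Its arrays overlapped between every NME1 line and Parent, and the largest difference was -0.26 between NME1-E5A and NME1-K12Q (limma adjusted p = 1.00, exact permutation p = 0.0857). The plot of transporter levels shows how far the arrays of 1 line scatter beside the distance between lines.

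**Figure D4:**
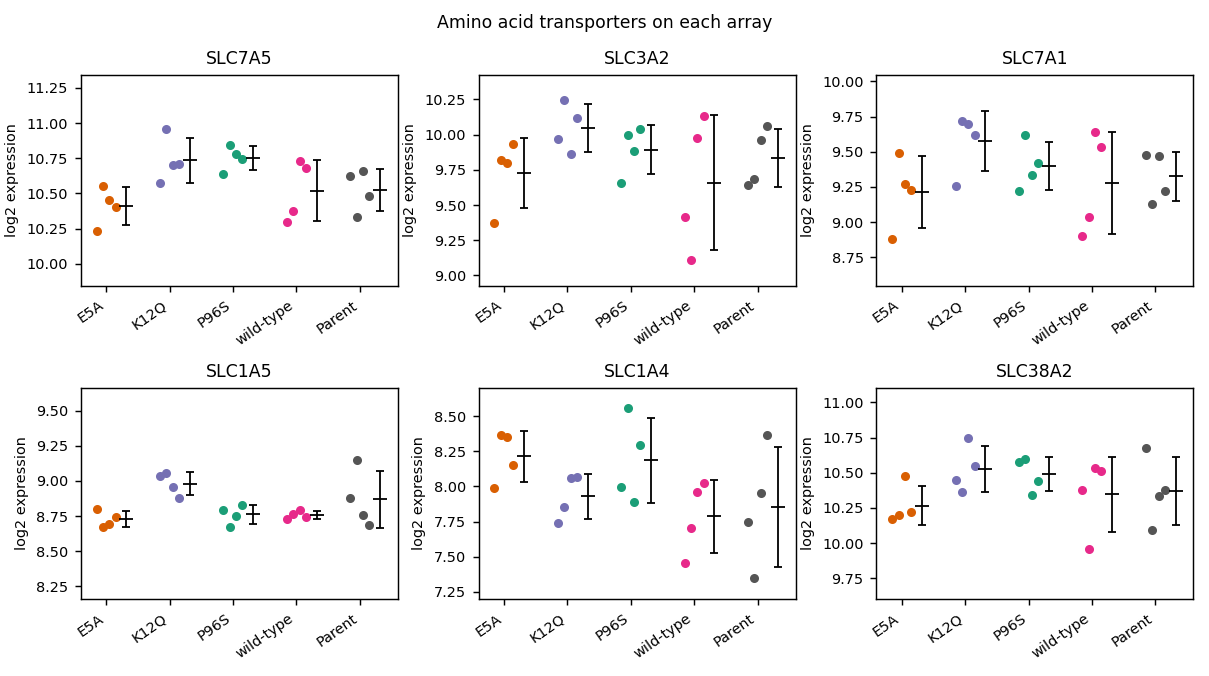
Log2 expression (vertical axis) of the 6 amino acid transporters on each array (coloured points, 4 a line, in replicate order) with the mean and SD of the line (black bar). SLC7A5 is lower on all 4 NME1-E5A arrays than on the NME1-K12Q and NME1-P96S arrays, while the NME1-wild-type arrays of SLC3A2 run from 9.11 to 10.13.

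Of the 8 chaperones and folding enzymes of the endoplasmic reticulum, 0 passed. HSPA5, which encodes the lumenal chaperone BiP and is the usual readout of unfolded protein stress, had 10.68, 10.65, 10.72 and 10.66 in NME1-E5A, 10.76, 10.52, 10.77 and 10.71 in NME1-K12Q, 10.88, 10.73, 10.41 and 10.65 in NME1-P96S, 10.71, 10.56, 10.72 and 10.70 in NME1-wild-type and 10.81, 10.53, 10.44 and 10.52 in Parent. It differed from Parent by 0.10, 0.11, 0.09 and 0.09 in NME1-E5A, NME1-K12Q, NME1-P96S and NME1-wild-type, and the 4 intervals ran from -0.15 to 0.35, all inside 1.5-fold. Parent replicate 1 was higher in HSPA5 than the other Parent arrays. The row of HSP90B1, the lumenal chaperone GRP94, and HSP90B3P had 11.27, 11.20, 11.44 and 11.21 in NME1-E5A, 11.20, 10.98, 11.31 and 11.19 in NME1-K12Q, 11.47, 11.36, 10.89 and 11.18 in NME1-P96S, 11.20, 11.05, 11.23 and 11.19 in NME1-wild-type and 11.22, 10.999, 10.85 and 11.10 in Parent. Its largest difference was 0.24, in NME1-E5A against Parent (95% interval -0.02 to 0.50, limma adjusted p = 1.00, exact permutation p = 0.0857).

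The lectin chaperones that hold glycoproteins until they fold were CALR and CANX. CALR, calreticulin, had the smallest pooled SD of the 37 (0.0849) and differed from Parent by 0.12, 0.03, 0.05 and 0.05. CANX, calnexin, differed by 0.37, 0.15, 0.23 and 0.23 in the same order of lines, and Parent replicate 2, at 9.96, lay below the other 19 arrays. Without the 3 narrowest arrays, of which this is 1, the CANX differences were 0.09, -0.17, -0.03 and -0.05, so the sign turned in NME1-K12Q, NME1-P96S and NME1-wild-type. PDIA4, a disulfide isomerase, differed by 0.07, -0.01, -0.04 and -0.04, and DNAJC3, a co-chaperone that inhibits eIF2 alpha kinases, by 0.19, 0.24, 0.19 and 0.11. DNAJB9, a BiP co-chaperone that restrains IRE1, differed by -0.23, -0.28, -0.30 and -0.03, and SDF2L1, another BiP partner, by -0.13, -0.18, -0.22 and -0.06. The signs of these small differences also turned with the scaling: after quantile normalisation HSPA5 in NME1-wild-type was -0.03 and CALR -0.07.

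The 3 degradation genes also gave 0 passing. HERPUD1, which organises the ubiquitin ligase complex of the endoplasmic reticulum, varied little, with differences from Parent of -0.04, 0.05, 0.01 and 0.01 and a largest difference between any pair of lines of -0.09. EDEM1, which marks misfolded glycoproteins for degradation, differed by 0.27, 0.13, 0.12 and 0.09, and SEL1L, the partner of the ligase HRD1, by 0.14, 0.07, 0.05 and -0.05. The interval of EDEM1 in NME1-E5A, -0.08 to 0.63, included both 0 and 1.5-fold. EDEM1 was the 1 member whose NME1-E5A and NME1-wild-type arrays did not overlap, with a difference of 0.18 (limma adjusted p = 1.00, exact permutation p = 0.0286).

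The genes with promoter elements were set beside the whole group. Of the 9 members with a C/EBP-ATF response element 0 passed in any comparison, and their median difference from Parent was -0.11 in NME1-E5A, 0.06 in NME1-K12Q, -0.04 in NME1-P96S and -0.05 in NME1-wild-type. The medians of all 37 members were -0.04, 0.04, 0.04 and -0.03, and those of all features -0.04, -0.05, -0.06 and -0.03. The 5 members with an endoplasmic reticulum stress element, CALR, CANX, HSP90B1, HSPA5 and XBP1, had medians of 0.12, 0.11, 0.09 and 0.09, with 0 passing. All 5 belong to the members with means above the median of all features, whose median on the narrowest array, Parent replicate 2, was -0.06 from the line mean, and the part of array spread in their medians was not tested.

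Genes of the same pathways outside the 37 were taken from 6 further lists, chosen with earlier results of these data known. Over all features 0.00544% to 0.277% passed in a comparison. Of 13 genes of the integrated stress response core 0 passed in any comparison, and their median difference from Parent was 0.01, 0.03, 0.06 and 0.10 in NME1-E5A, NME1-K12Q, NME1-P96S and NME1-wild-type. EIF2S1, which encodes eIF2 alpha, differed from Parent by 0.03, 0.17, 0.13 and 0.16 and the heme-regulated kinase gene EIF2AK1 by 0.11, 0.01, 0.21 and 0.08 in the same order of lines. Of 12 cytosolic aminoacyl-tRNA synthetases, which charge transfer RNA with amino acids and are ATF4 targets in part, 0 passed, with medians of 0.03, 0.05, 0.09 and -0.03. IARS1 differed by 0.14, 0.22, 0.25 and 0.05, and NARS1 by 0.07, 0.13, 0.09 and -0.07. Of 18 degradation and translocation genes 0 passed, with medians of 0.11, 0.11, 0.07 and 0.15, the ATPase gene VCP at 0.12, 0.15, 0.07 and -0.03 and the translocon gene SEC61A1 at 0.05, 0.12, 0.05 and 0.10. Of 6 genes of sensor processing 0 passed, with medians of 0.10, 0.08, 0.07 and 0.10, MBTPS1, the protease that cuts ATF6, at 0.14, 0.19, 0.18 and -0.11 and CREB3L2 at 0.10, 0.20, 0.24 and 0.11.

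Genes that passed were found only among the other ATF4 targets and the other folding genes of these lists. Since the lists were chosen with earlier results of these data known, the passes describe single genes and do not test a list. Of 17 other folding genes 1 passed, ERO1A, the oxidase that supplies disulfide bonds and is also a hypoxia-induced gene. It rose in NME1-E5A, with 8.88, 8.97, 9.19 and 9.03 against 8.39, 7.86, 7.91 and 8.31 in Parent, a difference of 0.90 (limma adjusted p = 0.0252). In this comparison, where 0.218% of all features passed and 1.99% had arrays without overlap, all 4 NME1-E5A arrays of ERO1A lay above the Parent arrays. That call ended when NME1-E5A replicate 1, 2, 3 or 4 or Parent replicate 2 or 3 was left out, at differences of 0.81 to 0.95, and with each array centred on its median or only the 2 lines fitted, and it held without the 3 narrowest arrays. The list's medians were 0.16, 0.03, 0.09 and 0.10. The highest-mean genes of that list, PDIA6 and P4HB, differed by 0.26 and 0.22 in NME1-E5A without passing.

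Of 17 other ATF4 targets, VLDLR and SLC7A11 passed, where 0.00544% to 0.277% of all features passed in a comparison. The list, chosen with earlier results known, had medians of 0.04, 0.08, -0.01 and 0.03. VLDLR had 7.60, 7.72, 7.70 and 7.65 in NME1-E5A, 6.82, 6.71, 6.77 and 6.91 in NME1-K12Q, 6.85, 6.87, 6.20 and 6.57 in NME1-P96S, 6.63, 6.81, 6.79 and 6.85 in NME1-wild-type and 6.66, 6.30, 6.41 and 6.59 in Parent. This lipoprotein receptor was higher in NME1-E5A than in every other line, by 0.86 than NME1-K12Q, 1.04 than NME1-P96S, 0.90 than NME1-wild-type and 1.17 than Parent (limma adjusted p from 8.99e-05 to 0.0026), and the call against NME1-P96S ended with only the 2 lines fitted. SLC7A11, the cystine carrier that pairs with SLC3A2, had 8.47, 8.398, 8.55 and 7.98 in NME1-E5A, 9.66, 9.19, 9.45 and 9.45 in NME1-K12Q, 7.45, 7.44, 6.64 and 6.86 in NME1-P96S, 8.98, 8.61, 9.13 and 8.75 in NME1-wild-type and 8.56, 7.72, 8.53 and 8.79 in Parent. NME1-K12Q was highest and NME1-P96S lowest, a difference of 2.34 (limma adjusted p = 2.26e-05), while the partner chain SLC3A2 differed by 0.15 between the same lines (95% interval -0.24 to 0.55). SLC7A11 was also lower in NME1-P96S, with differences of -1.77 against NME1-wild-type (adjusted p = 0.000289) and -1.30 against Parent (adjusted p = 0.0155), a call that ended without NME1-P96S replicate 4 or Parent replicate 1, 3 or 4, with arrays centred on their medians and with only the 2 lines fitted. For NME1-E5A the difference was 1.25 from NME1-P96S (adjusted p = 0.00913, lost without NME1-E5A replicate 3 or NME1-P96S replicate 4 and with only the 2 lines fitted) and -1.09 from NME1-K12Q (adjusted p = 0.0427, lost in 17 of 32 alternatives, 14 of them with 1 array left out: any of NME1-E5A or NME1-K12Q, NME1-P96S replicate 4, NME1-wild-type replicate 1, 2 or 4, or Parent replicate 1 or 3). ALDH18A1 and TXNIP, the highest-mean genes of the list, differed from Parent by 0.34 and 0.04 in NME1-E5A without passing.

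**Figure D5:**
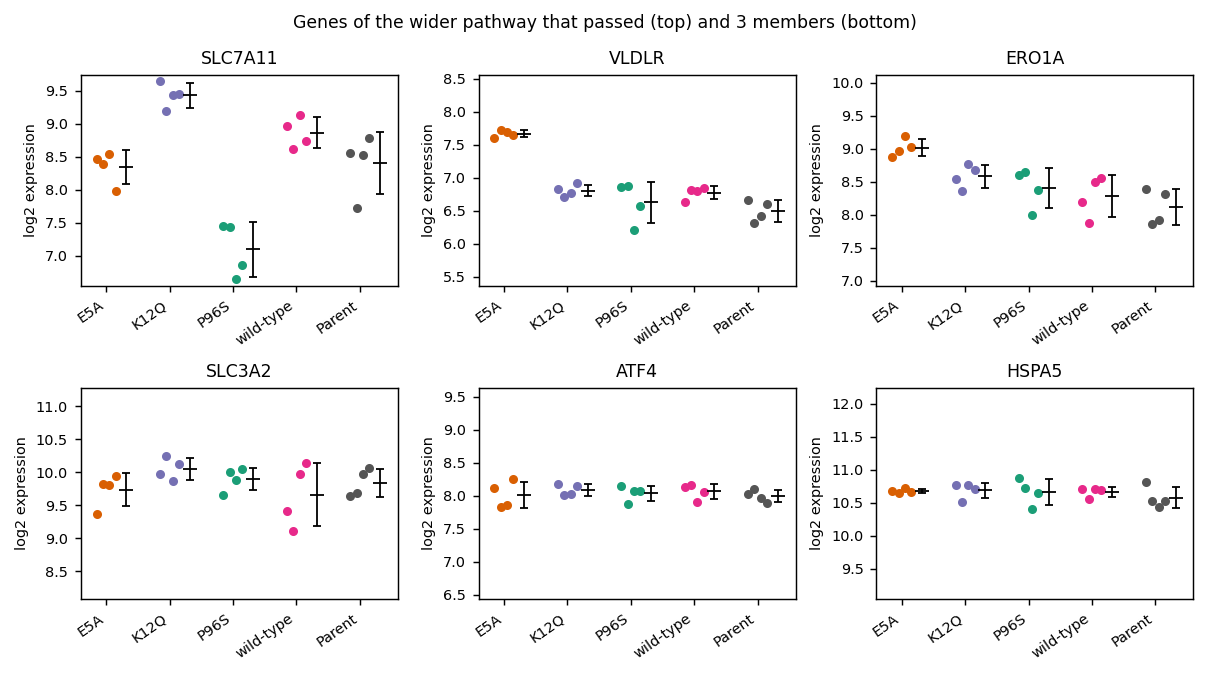
Log2 expression (vertical axis, the same span of 3.2 in every panel) on each array (coloured points, 4 a line) with the mean and SD of the line (black bar), for the 3 genes of the wider pathways that passed and for 3 of the 37 members. SLC7A11 is lowest on the 4 NME1-P96S arrays and highest on the 4 NME1-K12Q arrays, and VLDLR and ERO1A are highest on the NME1-E5A arrays, while SLC3A2, ATF4 and HSPA5 overlap between each NME1 line and Parent.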

How the data were processed

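RNA of 5 WM793 lines was measured on 20 exon arrays, grouped by title. The authors deposited log2 expression values made by RMA in R, per the labels and the series' design text. The submitters' processing notes also name limma, without a version, and the genome build was not given in the sources used here. Of 18708 rows, 14735 had a single symbol in the platform annotation and 2873 several. The highest-mean row stood for a gene, which left 18384 features. limma 3.58.1 in R 4.3.3 (lmFit, eBayes, 15 residual degrees of freedom) fitted a mean for each line to all features. On simulated data with independent noise it missed most changes of 1.5-fold and found most of 2-fold. A change also had to be estimated at 1.5-fold or more, so misses at that size come in part from the rule itself. The measured arrays deviated together by replicate number and differed in spread, which the simulated noise did not, so its outcome may not carry over. P-values were adjusted by Benjamini-Hochberg over all features. The number of arrays limits the precision. In NME1-K12Q against NME1-wild-type and in NME1-wild-type against Parent the deviations of all 4 same-numbered pairs correlated over 0.1 (0.23 to 0.51 and 0.105 to 0.40), so there the numbers count as pairs, from the data and not the labels. The block fits 1 effect per replicate number over all 20 arrays and 5 lines, so its residual includes lines outside these 2 comparisons. With the block, 0 members changed in both. An unadjusted p under 0.05 was then seen in 2 members (SLC3A2 and SLC1A5) and 1 member (PHGDH), against 1 and 0 without it. The members and lists were chosen with earlier results of these data known. Every member is named, and the 12 with the smallest F-test p are given array by array; array values of ATF4, HSPA5, ERO1A, VLDLR and SLC7A11 were added after they were seen. Other pathway genes are named where changed, with the 2 of highest mean in each list. Alternatives were other scalings, array spread as covariate, the 2 lines alone, a replicate block, other rows, thresholds and priors, and each array left out.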

Additional observations from a re-analysis of the deposited data

Results flagged for a closer look

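In each line the 4 arrays of each member were searched for 1 array far from the rest by Dixon's criterion at the 95% level. Of 185 groups of 4 arrays 10 stood out, and chance alone flags about 5%. DDIT3 on NME1-K12Q replicate 1 was 6.85, with the other 3 arrays at 5.67 to 5.78. Replicate 1 was also the highest DDIT3 array in NME1-E5A and NME1-P96S, and the second highest in NME1-wild-type and Parent. TRIB3 on NME1-P96S replicate 3 was 7.26, with the other 3 arrays at 6.57 to 6.66. SEL1L on NME1-P96S replicate 3 was 7.87, with the other 3 arrays at 8.39 to 8.46. DNAJB9 on NME1-P96S replicate 1 was 6.55, with the other 3 arrays at 6.08 to 6.16. SLC38A2 on NME1-E5A replicate 3 was 10.48, with the other 3 arrays at 10.17 to 10.22. CALR on NME1-E5A replicate 2 was 11.01, with the other 3 arrays at 11.17 to 11.19. For NME1-wild-type replicate 2 there were 4 such values. PSPH on NME1-wild-type replicate 2 was 8.22, with the other 3 arrays at 8.56 to 8.61. HSPA5 on NME1-wild-type replicate 2 was 10.56, with the other 3 arrays at 10.70 to 10.72. ATF6 on NME1-wild-type replicate 2 was 8.70, with the other 3 arrays at 8.86 to 8.88. PPP1R15A on NME1-wild-type replicate 2 was 8.22, with the other 3 arrays at 7.73 to 7.78. Leaving out any of these arrays left 0 members changed in all 10 comparisons.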

How the results depend on the processing

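The count of changed members was 0 in each of the 10 comparisons under all 32 alternatives, including each of the 20 arrays left out in turn, so all 320 counts were 0, and the F test over the 5 lines gave 0 wherever it was run. Over the same settings the changed features in a single test ran from 0 to 356, the highest being the F test with array interquartile range as covariate. The leading difference of each of the 12 members with the smallest F-test p was the comparison with its smallest limma p in these data. These differences kept their sign and did not pass in any of the 383 values recomputed. Since they were picked as the strongest and refitted on nearly the same arrays, the kept sign is no test of stability. The largest difference of any member in any alternative was 0.67. All 270 medians over the members moved by less than the SD between arrays of the median member level. That level ran from 8.09 to 8.69 on the Parent arrays, while the median differences as reported lay between -0.04 and 0.04. Even a change of sign could thus count as no move, and no stability is read from this. The folding median in NME1-P96S against Parent was 0.07 as deposited and -0.01 with that covariate; the cause was not tested. With the replicate number as a block the count was 0 in all 10 comparisons. Same-numbered arrays of different lines deviated together with r over 0.1 in 25 of 40 pairs (from -0.85 to 0.81). Their median r was 0.24, against -0.05 for arrays of different numbers, and all 10 pairs of replicate 1 were positive. In the 8 comparisons where not every pair was over 0.1 the numbers were not taken as pairs. The block is shared by all 5 lines, so lines whose same-numbered arrays deviated in opposite directions also entered its results for the other 2. Of the calls for wider-pathway genes, the block ended that of SLC7A11 in NME1-E5A against NME1-K12Q (adjusted p = 0.0506). A limma test against a 1.5-fold minimum (treat) ended 8 of the 10 such calls, all but SLC7A11 in NME1-K12Q against NME1-P96S and in NME1-P96S against NME1-wild-type.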
